A study of Homo sapiens with 4 samples.

Results

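NRF2 targets and redox enzymes were described here as 33 genes of NRF2 signalling, glutathione and thioredoxin metabolism, aldo-keto reduction and the pentose phosphate pathway, among the 60649 gene rows of the count table. They were taken by gene symbol and read in 7 groups by role. Of the 33, 32 passed the filter on low counts and 1, SRXN1, did not. The cells were FaDu, an established line from a squamous cell carcinoma of the hypopharynx, grown in MEM alpha Glutamax with fetal bovine serum. One group overexpressed TINCR carrying HA and FLAG epitope tags (TINCR-HA-FLAG), and the other carried an empty vector in the same line. Each group had 2 RNA sequencing libraries, which the series calls technical replicates, so the spread behind each p-value may be technical. Neither the promoter that drives the construct nor the number of clones is stated in the sources used.

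NRF2, encoded by NFE2L2, is a transcription factor that binds antioxidant response elements together with small MAF proteins. In unstressed cells KEAP1 links it to a CUL3 ubiquitin ligase and it is degraded, and oxidants or electrophiles that modify KEAP1 let it accumulate. Its activity is therefore set largely at the protein level. Its targets make glutathione, reduce thioredoxin and quinones, supply NADPH and export conjugates, and the pathway is often active in squamous carcinomas of the head and neck.

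The antioxidant response element holds the letters TGACNNNGC, which were searched on both strands of the RefSeq promoter windows (GRCh38.p14, 300 bases, of which 50 lie after the start site). Windows were found for 26 of the 33 genes (not SLC7A11, GSS, GSR, PRDX1, PRDX6, AKR1B10 or ABCC1), and 9 of these genes (34.6%) had a match, beside 16.1% of the 27305 genes in the whole table. A gene can have several windows, which raises its share. By window, 10 of 39 (25.6%) held a match, beside 13.3% of all 35116 windows. A match that also holds the AP-1 letters TGACTCA stood in 2 of the 26 genes, GSTP1 and ME1, beside 0.7% of all genes. A match is a run of letters and not a measured binding site. The following stretches hold such a match. In counts scaled to library size, the groups overlapped for GPX2 and GSTP1 and did not for GCLM, ME1 and TXNRD1. A difference between these genes was not tested. EPHX1, KEAP1, MGST1 and PGD also had a match and are not shown. The match is in capitals, the gene's strand is printed 5′ to 3′, and the match is read on the opposite strand in GCLM and GPX2.
GCLM (chr1:93909436-93909484, minus strand, match beginning 34 bases before the start site): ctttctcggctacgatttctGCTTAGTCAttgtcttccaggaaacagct
GPX2 (chr14:64942839-64942887, minus strand, 122 bases before): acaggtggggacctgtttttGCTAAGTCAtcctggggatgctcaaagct
GSTP1 (chr11:67583726-67583774, plus strand, 66 bases before): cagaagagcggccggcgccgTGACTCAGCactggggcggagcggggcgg
ME1 (chr6:83431160-83431208, minus strand, 137 bases before): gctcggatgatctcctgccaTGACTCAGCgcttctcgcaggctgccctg
TXNRD1 (chr12:104215660-104215708, plus strand, 99 bases before): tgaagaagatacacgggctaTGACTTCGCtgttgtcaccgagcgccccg

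Total counts were 17069533 and 17315648 in the empty vector libraries and 18151424 and 22331602 in the TINCR-HA-FLAG libraries, and the mitochondrial share of counts ranged from 7.58% to 11.4%. TINCR counts were 68 and 64 in the empty vector libraries and 1921 and 2943 in the others, the direction the labels state. All 7 squamous markers examined were detected, with summed levels of 7450 and 8590 CPM (counts scaled to library size, with TMM factors) in the empty vector libraries and 6090 and 7400 in the TINCR-HA-FLAG libraries. The 5 leukocyte markers summed to 4.49 and 4.84 against 3.85 and 4.28 CPM, the 3 endothelial markers to 9.57 and 10.7 against 13.8 and 12.5, and the 6 fibroblast markers to 45.9 and 41.8 against 50.6 and 50.9. Of these, 4 of 5, 2 of 3 and 1 of 6 were under 1 CPM in every library, and none was at 0 in all 4.

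No member was called between the groups in the test without a replicate term. At an adjusted p under 0.05, edgeR's quasi-likelihood test called 0 of the 32 tested members, beside 0.549% of all 18771 genes tested (0.453% higher and 0.0959% lower), and DESeq2 also called 0 of 32, beside 0.975% of all genes it tested. At an unadjusted p under 0.05, 8 members were lower and 0 higher, beside 4.31% lower and 5.88% higher of all genes tested. These 8 were SLC7A11, GCLM, AKR1B1, AKR1B10, AKR1C1, UGDH, ABCC1 and ABCC2, with adjusted p from 0.153 to 0.483 in edgeR. The log2 fold change was negative for 28 of the 32, where 49.3% of all genes were negative, and its median was -0.14 against 0.004 over all genes tested. For 15 of the 32, both TINCR-HA-FLAG libraries lay below both empty vector libraries, and for 2 above, beside 17.9% and 21.7% of all genes. In 23 of the 32 the 95% interval of the fold change stayed within 1.5-fold in either direction, and in 28 within 2-fold. The squamous markers moved in the same direction as most members. All 7 had a negative log2 fold change, 6 of them without overlap, and KRT14, a keratin of basal epithelium named after its values were seen, was called lower (108 and 125 against 45.9 and 64.2 CPM, log2 fold change -1.08, SE 0.15, edgeR adjusted p = 0.014). Their part in the members' values was not tested. In bulk RNA, fewer cells expressing a gene and less RNA per cell cannot be told apart.

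**Figure D1:**
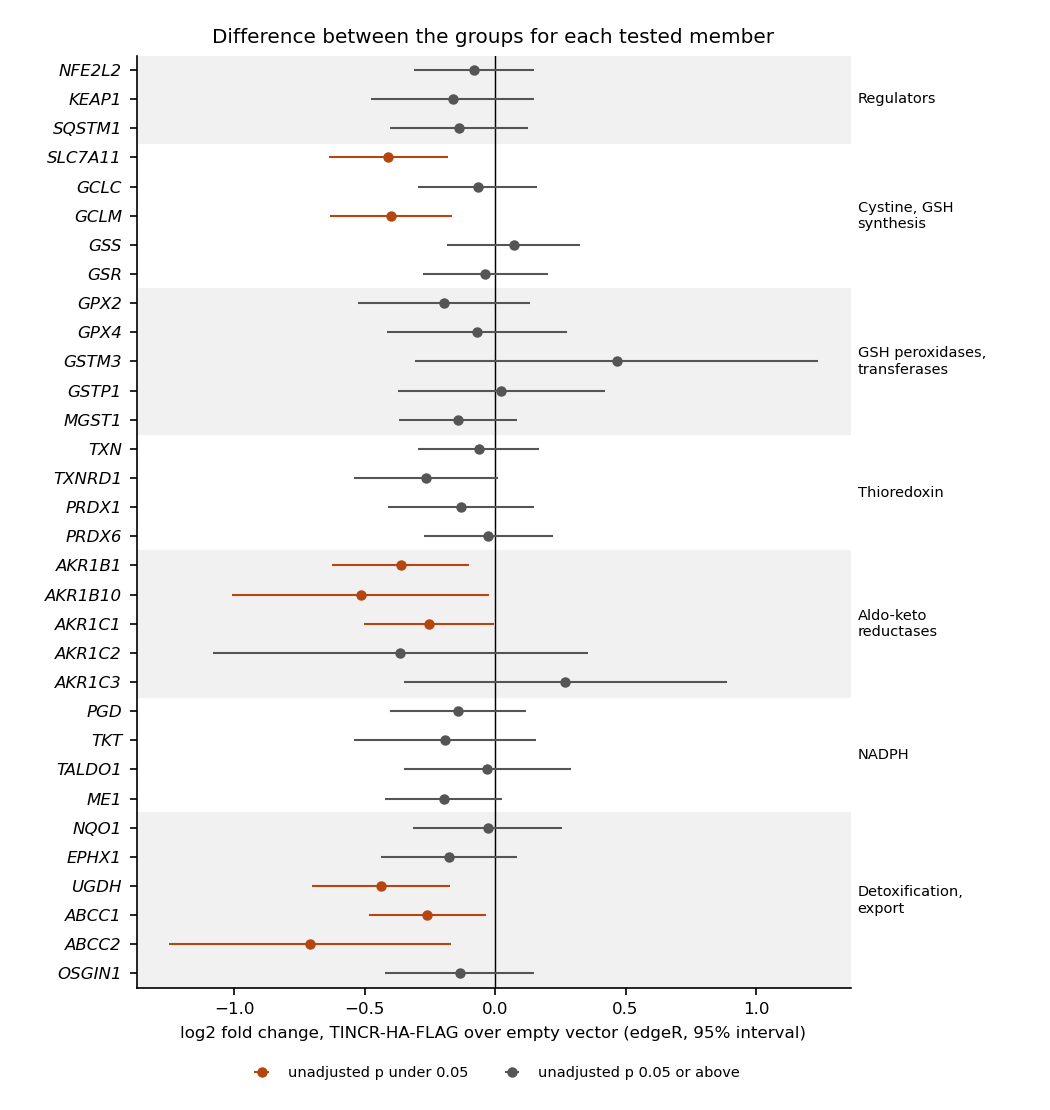
Log2 fold change (TINCR-HA-FLAG over empty vector) with its unadjusted 95% interval from edgeR for the 32 tested members, grouped by role. The 8 members in orange have an unadjusted p under 0.05 and all lie to the left of 0, and none passed after adjustment over all genes.

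The size of the median rested on single libraries. It moved to -0.27 when empty vector replicate 1 was left out and to -0.24 when TINCR-HA-FLAG replicate 2 was. Leaving out empty vector replicate 2 gave -0.03, leaving out TINCR-HA-FLAG replicate 1 gave -0.04, and the number of negative members ranged from 22 to 30. In the 8 members lower at an unadjusted p under 0.05, both TINCR-HA-FLAG libraries lay below both empty vector libraries. Leaving out a library could therefore hardly change their sign, and only the size of their difference could move. Without empty vector replicate 2 the log2 fold change was -0.435 for SLC7A11, -0.318 for GCLM, -0.263 for AKR1B1 and -0.472 for AKR1B10. In the same fit it was -0.154 for AKR1C1, -0.284 for UGDH, -0.291 for ABCC1 and -0.981 for ABCC2. Relative to the mean of the 4 libraries, the median member lay at -0.03 and 0.15 on the log2 CPM scale in empty vector replicates 1 and 2, and at -0.15 and 0.01 in TINCR-HA-FLAG replicates 1 and 2. The groups therefore overlapped, since TINCR-HA-FLAG replicate 2 lay above empty vector replicate 1. Over all genes tested the same medians lay between -0.01 and 0.02. In 24 of the 32 members the library numbered 2 was above the one numbered 1 in both groups, which held for 33.2% of all genes tested. Mitochondrial genes moved the other way, with 9.43% and 7.58% of counts in empty vector replicates 1 and 2 and 11.4% and 8.66% in TINCR-HA-FLAG replicates 1 and 2. With mitochondrial genes left out before scaling, the member median was -0.15 and again 0 members were called.

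**Figure D2:**
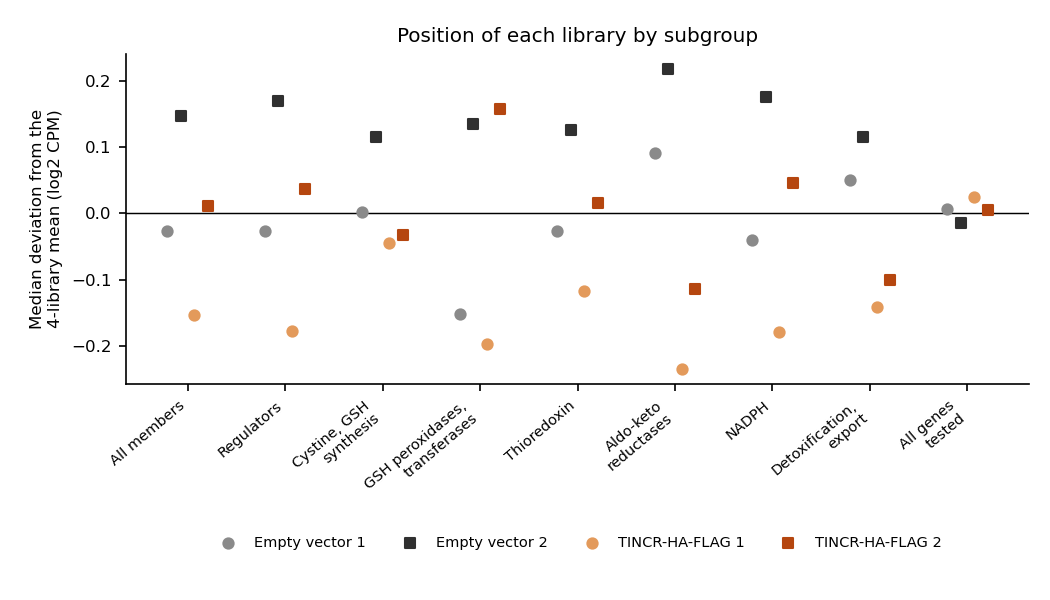
Median over the tested genes of each group of each library's deviation from the mean of the 4 libraries, in log2 CPM, for all members, the 7 groups by role and all genes tested. The 2 groups of libraries do not overlap for cystine import and glutathione synthesis, aldo-keto reductases, and detoxification and export, and overlap for the other 4 and for all members.

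The regulators showed no separation. NFE2L2 had 190 and 204 CPM in the controls and 182 and 190 with the construct, with a log2 fold change of -0.08 (SE 0.10, 95% interval -0.31 to 0.15). For KEAP1, the substrate adaptor that holds NRF2 down, the values were 79.5 and 94.9 against 67.6 and 87.9 CPM (log2 fold change -0.16, interval -0.48 to 0.15). SQSTM1, the autophagy receptor p62 that can sequester KEAP1, had 192 and 220 against 173 and 201 CPM. For each of these 3 genes the lower empty vector library lay within the range of the TINCR-HA-FLAG libraries. SQSTM1 shares 20.7% of its exon bases with MRNIP on the opposite strand, and NFE2L2 17.6% with an overlapping RNA on its own strand (ENSG00000213963) that had 12 to 50 counts.

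Among the 5 genes of cystine import and glutathione synthesis and reduction, the transporter and the modifier subunit had the largest differences. SLC7A11 (GRCh38 chr4:138164097-138242349) encodes xCT, the transporter subunit that brings in cystine for glutathione. Its level was 145 and 139 CPM in the controls and 112 and 103 with the construct, or 142 ± 4.27 against 107 ± 6.14 (SD, n = 2 per group). This gave a log2 difference of -0.41 (SE 0.10, unadjusted p = 0.0025, adjusted p = 0.153, edgeR). GCLM (chr1:93885205-93909456), the modifier subunit of glutamate-cysteine ligase, had 173 and 192 CPM against 138 and 139, a log2 fold change of -0.40 (SE 0.10, unadjusted p = 0.0033, adjusted p = 0.171, edgeR). GCLC encodes the catalytic subunit of the same enzyme. It had 248 and 259 CPM against 242 and 242, and its log2 fold change of -0.07 had an interval of -0.30 to 0.16. Both TINCR-HA-FLAG libraries of GCLC also lay below both controls, but by a small margin.

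The later steps overlapped between the groups. GSS, glutathione synthetase, had 80.4 and 93.8 CPM against 86.7 and 96.3, and GSR, which reduces oxidized glutathione, had 109 and 125 against 112 and 117. Their log2 fold changes were 0.07 and -0.04.

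Glutathione peroxidases and transferases had no member with an unadjusted p under 0.05. GPX2, the peroxidase of epithelial linings, had 157 and 202 CPM against 138 and 175. GPX4, which reduces lipid hydroperoxides, had 158 and 205 against 150 and 196 CPM. In both genes the replicates of a group differed by more than the group means did. GSTP1, the pi class glutathione transferase, was the most expressed member, with 2375 and 2900 against 2303 and 3062 CPM, and the TINCR-HA-FLAG libraries bracketed the controls (log2 fold change 0.02, interval -0.37 to 0.42). MGST1, the microsomal transferase, had 205 and 215 against 188 and 193 CPM, with no overlap and a log2 fold change of -0.14 (interval -0.37 to 0.08). GSTM3, a mu class transferase, was near the bottom of the range at 31 and 29 counts against 41 and 58. Its libraries with TINCR-HA-FLAG were the higher ones, but the interval of its log2 fold change of 0.47 ran from -0.31 to 1.24.

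In the thioredoxin system the groups did not overlap for the reductase and overlapped for its substrate. A difference between these genes was not tested. TXNRD1, the selenoenzyme that reduces thioredoxin with NADPH, had 1035 and 1100 CPM in the controls against 858 and 918. The log2 fold change was -0.27 (SE 0.12, 95% interval -0.54 to 0.01, adjusted p = 0.517, edgeR). TXN, thioredoxin itself, had 160 and 173 against 155 and 164 CPM and overlapped. PRDX1 and PRDX6 are peroxiredoxins that remove peroxides, the first with thioredoxin as electron donor and the second mainly with glutathione. Their values were 582 and 663 against 536 and 601 CPM for PRDX1, and 180 and 201 against 177 and 196 for PRDX6, so both overlapped. PRDX1 shares 24.9% of its exon bases with MMACHC on the opposite strand, a row with 533 to 799 counts.

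SRXN1, sulfiredoxin, which repairs overoxidized peroxiredoxins, could not be assessed. Only 1 and 4 counts were in the control libraries and 5 and 6 in the TINCR-HA-FLAG libraries. A protein-coding gene on the same strand, ENSG00000270299, shares 85.0% of SRXN1's exon bases, and its row held 1 to 6 counts. Reads from the shared bases cannot be given to one of the pair, so the low count does not show that SRXN1 was silent.

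Among the aldo-keto reductases, which reduce aldehydes and ketones with NADPH, 4 of 5 lay below the controls without overlap and 1 above, beside 17.9% and 21.7% of all genes tested. AKR1B1 (chr7:134442350-134459284), aldose reductase, had 195 and 221 CPM in the controls against 149 and 174. The log2 difference was -0.36 (SE 0.12, unadjusted p = 0.012, adjusted p = 0.304, edgeR). Its neighbour AKR1B10, which reduces retinal and other aldehydes and is a marker of NRF2 activity, was far less abundant, with 116 and 121 counts against 82 and 116. Scaled to library size these were 6.77 and 7.14 against 4.45 and 5.23 CPM. The log2 difference was -0.51 (SE 0.22), with an edgeR adjusted p of 0.466.

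The AKR1C genes, hydroxysteroid dehydrogenases in a cluster on chromosome 10, have similar sequences. Of the 50-base stretches in AKR1C2 transcripts, 38.1% also occur in AKR1C1, and 28.3% of those in AKR1C1 occur in AKR1C2, so reads can be shared. AKR1C1 had 55.9 and 63.6 CPM against 52.0 and 48.3 (log2 difference -0.25, SE 0.11, edgeR adjusted p = 0.483). Without empty vector replicate 2 the AKR1C1 difference was -0.15 (unadjusted p = 0.38, edgeR), and without empty vector replicate 1 it was -0.38. AKR1C2 had 52 and 43 counts against 38 and 50, or 3.04 and 2.54 against 2.06 and 2.25 CPM. AKR1C3 went the other way, with 3.27 and 2.95 against 3.96 and 3.56 CPM, and its interval ran from -0.35 to 0.89. Summed to 1 row, the 3 genes had 1066 and 1171 counts against 1069 and 1200, a log2 fold change of -0.23 (SE 0.11, unadjusted p = 0.062, adjusted p = 0.529, edgeR). AKR1C1 supplied 89.2% to 92.1% of that sum.

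**Figure D3:**
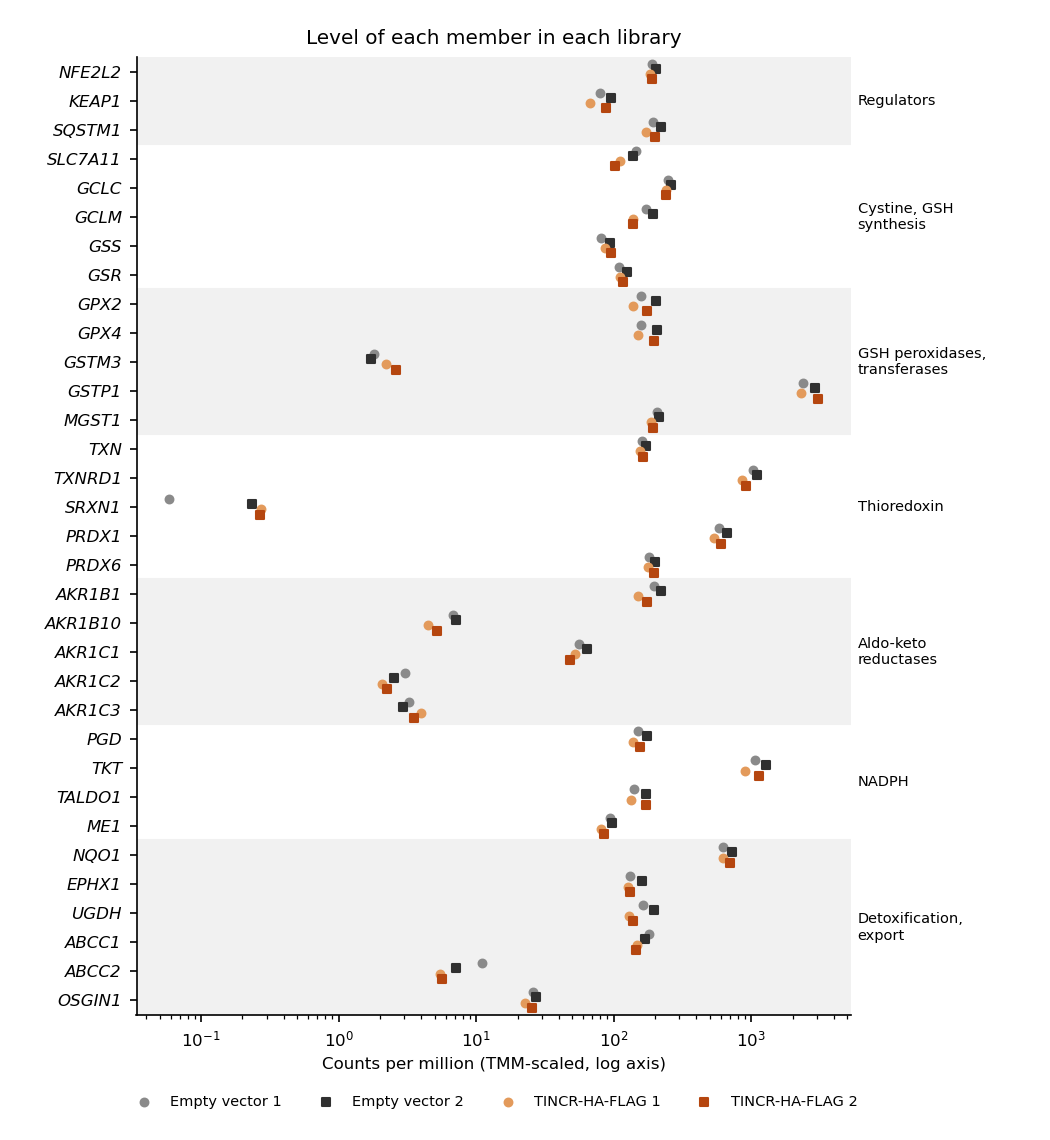
Level of each of the 33 members in each of the 4 libraries, in TMM-scaled CPM on a log axis, by role (circles replicate 1, squares replicate 2). Most members lie near 100 CPM or above with the 4 libraries close together, while GSTM3, AKR1B10, AKR1C2, AKR1C3 and SRXN1 lie below 10 in every library.

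The genes of the pentose phosphate pathway and NADPH supply mostly overlapped between the groups. TKT, transketolase of the non-oxidative pentose phosphate branch, had 1059 and 1286 CPM against 905 and 1148. TALDO1, transaldolase of the same branch, had 140 and 173 against 134 and 173 CPM, and PGD, which makes NADPH in the oxidative branch, 149 and 174 against 137 and 155. ME1, the cytosolic malic enzyme, was the 1 member of these 4 without overlap, at 93.3 and 96.8 against 80.4 and 85.4 CPM. Of all genes tested, 17.9% were lower and 21.7% higher without overlap. The log2 fold change of ME1 was -0.20 (SE 0.10, 95% interval -0.42 to 0.03).

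The genes of detoxification and export had 5 of 6 members without overlap, all lower with TINCR-HA-FLAG, where 17.9% of all genes tested were lower without overlap. UGDH (chr4:39498755-39528311) makes UDP-glucuronic acid for glucuronidation and matrix glycans. It had 163 and 198 CPM against 129 and 137, a log2 fold change of -0.44 (SE 0.12, unadjusted p = 0.0041, adjusted p = 0.193, edgeR). Leaving out empty vector replicate 2 gave -0.28 for UGDH (unadjusted p = 0.12, edgeR), and leaving out empty vector replicate 1 gave -0.61. ABCC1 (chr16:15949577-16143074) exports glutathione conjugates, and it had 179 and 170 against 147 and 146 CPM. The log2 difference was -0.26 (SE 0.10), with an edgeR adjusted p of 0.408. ABCC2, a related exporter of apical membranes, had 188 and 121 counts against 100 and 125, so the controls lay far apart. The log2 difference was -0.71 (SE 0.24), with an edgeR adjusted p of 0.335. Leaving out empty vector replicate 1 gave -0.41 for ABCC2, and leaving out empty vector replicate 2 gave -0.98.

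EPHX1, microsomal epoxide hydrolase, had 131 and 160 against 127 and 131 CPM, and OSGIN1, an oxidative stress-induced growth inhibitor, 25.7 and 27.4 against 22.6 and 25.7. In both, one library of each group nearly met. NQO1, the quinone reductase often read as the indicator of NRF2 activity, had 626 and 722 against 622 and 698 CPM. Its log2 fold change was -0.03 with an interval of -0.31 to 0.26, and the libraries of the groups overlapped.

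Ratios of raw counts of related genes within a library do not depend on scaling, and the pairs were chosen after their values were seen, so they are given without a test. GCLM over GCLC was 0.70 and 0.74 in the controls and 0.57 and 0.57 with the construct. TXNRD1 over TXN was 6.47 and 6.36 against 5.55 and 5.59. TKT over TALDO1 was 7.58 and 7.43 against 6.76 and 6.66. In these 3 ratios the groups did not overlap. SLC7A11 over SLC3A2, which encodes the heavy chain that pairs with xCT, was 0.41 and 0.33 against 0.45 and 0.33 and overlapped. IDH2 over IDH1, the mitochondrial over the cytosolic isocitrate dehydrogenase, went the other way without overlap, at 0.32 and 0.33 against 0.72 and 0.94.

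**Figure D4:**
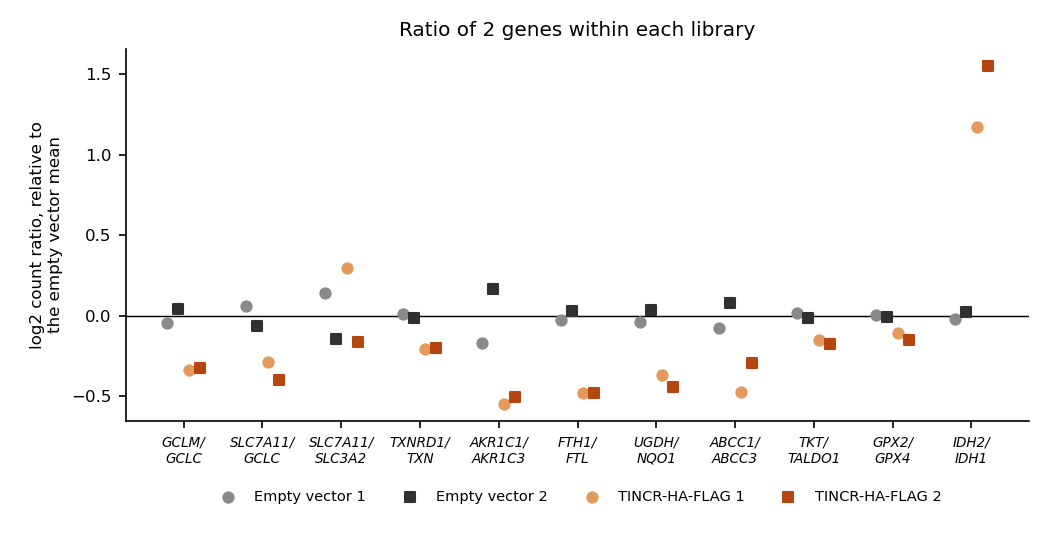
Log2 ratio of the raw counts of 2 genes within each library, relative to the mean of the 2 empty vector libraries, for 11 pairs chosen after the values were seen. Both TINCR-HA-FLAG libraries lie below both empty vector libraries in 9 pairs and above them in IDH2 over IDH1, and SLC7A11 over SLC3A2 overlaps.

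Levels compared between genes need the exon length, taken here from GENCODE 29 (CPM per kilobase of exon, empty vector mean ± SD, n = 2). By that measure GSTP1 was the most abundant member at 1380 ± 194, followed by PRDX1 at 409 ± 37.5, NQO1 at 207 ± 20.9, TXNRD1 at 159 ± 6.85 and TXN at 146 ± 7.99. The ranges of TXNRD1 (154 to 164) and TXN (140 to 151) were adjacent and that of NQO1 (192 to 222) lay above both. Of the 32 tested members, 21 were above the 90th percentile of the 18500 tested genes with a length. The 4 below the 50th percentile were GSTM3, AKR1C2, AKR1C3 and ABCC2.

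A wider list of 79 other genes of the pathway was read from the same fit, and 71 passed the filter on low counts. In edgeR 1 was called higher and 0 lower, beside 0.453% and 0.0959% of all genes tested. At an unadjusted p under 0.05, 3 were higher and 13 lower, beside 5.88% and 4.31% of all genes. The median log2 fold change was -0.06. IDH2 (chr15:90083045-90102504), the mitochondrial isocitrate dehydrogenase that makes NADPH, was the one called. It went from 46.4 and 52.7 CPM to 95.5 and 121, or 49.5 ± 4.47 against 108 ± 17.8 (SD, n = 2 per group). The rise was 1.13 on the log2 scale (SE 0.13), with an edgeR adjusted p of 0.0047, and it was called under every alternative tried.

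Other regulators included MAFG, a small MAF partner of NRF2, with 94.7 and 106 against 78.0 and 76.7 CPM (log2 difference -0.37, SE 0.10, edgeR adjusted p = 0.211). NFE2L1, the related factor NRF1, had 143 and 151 against 136 and 157 CPM. Of the other glutathione genes, 11 of 16 tested were above 0 and 5 below, where 49.3% of all genes tested were negative. Their median log2 fold change was 0.08. At an unadjusted p under 0.05, 2 of the 16 were higher and 1 lower, beside 5.88% and 4.31% of all genes tested. SLC3A2, the lower one, had 358 and 417 against 246 and 313 CPM, with a log2 difference of -0.47 (SE 0.14, edgeR adjusted p = 0.242). The higher ones, named after their values were seen, were GPX3, the secreted peroxidase, and GLRX, a glutaredoxin. GPX3 had 8.35 and 9.20 against 13.2 and 14.5 CPM (log2 difference 0.66, edgeR adjusted p = 0.158), and GLRX 1.58 and 1.71 against 3.53 and 2.88 CPM (log2 difference 0.95, edgeR adjusted p = 0.352). In both, the groups did not overlap. GLO1, glyoxalase, had 202 and 222 against 214 and 236 CPM. The mitochondrial enzymes PRDX3 and SOD2 overlapped between the groups, with log2 fold changes of -0.06 and 0.12.

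The other reductases, detoxification, haem and iron genes were mostly negative, with 18 of 26 tested below 0 and a median log2 fold change of -0.17. At an unadjusted p under 0.05, 8 of the 26 were lower and 0 higher, beside 4.31% and 5.88% of all genes tested. In this group the libraries did not overlap for the heavy chain of ferritin and overlapped for the light chain. A difference between these chains was not tested. FTH1, the heavy chain, had 2113 and 2608 CPM in the controls against 1404 and 1751, with a log2 difference of -0.58 (SE 0.17, edgeR adjusted p = 0.220). FTL, the light chain, had 1631 and 1935 against 1481 and 1848 CPM and overlapped. FTH1 over FTL was 1.30 and 1.35 against 0.95 and 0.95. Both ferritin genes have processed pseudogenes with which reads can be shared. HMOX1, haem oxygenase, was named after its values were seen. It had 12.1 and 16.8 against 10.2 and 12.4 CPM, and the groups overlapped.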

How the data were processed

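The authors deposited raw read counts, as whole numbers in a table of Ensembl genes by libraries. Per the labels' protocols, RNA came from an RNeasy kit and libraries from a NEBNext Ultra kit. Per the submitters' processing notes, STAR 2.7.9a, bcl2fastq 2.20.0.422 and DESeq2 1.32.0 were used with GRCh38, with no role stated. How reads were counted, on which strand and with which annotation is not given in the sources used here, so overlapping genes may share reads. A further 12 library columns fit no described sample and stayed out. Columns were matched to samples by cell line, construct and replicate number.

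Symbols were looked up by Ensembl identifier (60463 of 60649 rows), else in GENCODE 29, which also gave exon lengths and positions (58381 rows). Filtering used filterByExpr, scaling TMM, and testing the edgeR 4.0.16 quasi-likelihood test (robust, R 4.3.3) over all 18771 genes with Benjamini-Hochberg adjustment. Alternatives were DESeq2 1.42.0, other scalings, filters and dispersion estimate, mitochondrial genes left out, the replicate number as a block, and each library left out. Standard errors are the log2 fold change over the root of the F statistic. At these depths 3 counts are 0.134 to 0.176 CPM, which covers counting error only. The tests were also run on simulated counts, drawn independently for each library with a fixed dispersion. That run had no deviation shared by same-numbered libraries, so it cannot show how the tests behave under the one described below. Ratios use raw counts. Members, lists and alternatives were chosen with earlier results of these data known. All 33 members are named. Of the wider list, called genes and up to 2 of the most expressed genes of each group with none called are named. Outside that rule, GPX3, GLRX, HMOX1 and the ratio pairs were chosen after their values were seen. One gene of the wider list stayed in every test but is not reported here.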

Additional observations from a re-analysis of the deposited data

How the results depend on the processing

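The replicate numbers are shared between the groups, but the labels do not say that a number marks a shared culture, batch or day, and there are only 2 pairs. Same-numbered libraries deviated together from their group means (r = 0.37 across 18771 genes, which are not independent replicates, and 0.50 across the 32 members). The replicate number as a block leaves 1 residual degree of freedom per gene. With it, edgeR called 2633 of 18771 genes (1317 higher and 1316 lower). It called 13 of the 32 members (all lower) and 21 of 71 other pathway genes (6 higher and 15 lower). The summed AKR1C row was also called (-0.23, edgeR adjusted p = 0.018). The 13 were SLC7A11, GCLM, GPX2, TXNRD1, PRDX1, AKR1B1, AKR1C1, TKT, ME1, EPHX1, UGDH, ABCC1 and ABCC2.

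Under every other alternative 0 members were called, and IDH2 stayed called. Without the low-count filter 53 genes were called in all, and DESeq2 called 2 other pathway genes, IDH2 and FTH1. The cause of these shifts was not tested. Leaving out 1 library at a time gave 124 to 386 genes called in all, 0 members, 1 to 2 other pathway genes, a member median of -0.266 to -0.0296 and -0.343 to -0.147 for the AKR1C sum. Signs reversed in that exercise for KEAP1 (-0.37 to 0.02), GSS (-0.0768 to 0.192), GSR (-0.174 to 0.0681), GPX2 (-0.406 to 0.000616), GPX4 (-0.28 to 0.14), GSTP1 (-0.20 to 0.22), PRDX6 (-0.145 to 0.0625), TALDO1 (-0.23 to 0.15) and NQO1 (-0.169 to 0.0832), and for no other tested member. Members whose groups did not overlap could hardly reverse in that exercise. No sign of a tested member reversed under the other settings. A library left alone in its group is taken to vary as the other group does. Depth limits GSTM3, AKR1C2 and AKR1C3, which had at most 79 counts in any library, and SRXN1.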
